A study of Mus musculus with 10 samples.

Results

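The 10 genes described here mark the macrophages of the testis: Csf1r, Adgre1, Cd68, Mrc1, Cd163, Lyve1, Cx3cr1, C1qa, C1qb and C1qc. They were taken by symbol from the 55421 Ensembl genes in the count files, and all 10 matched 1 gene each. Poly(A)-selected RNA was sequenced from pairs of testes of wild type (Mov10+/+) mice, replicates 1, 2 and 3, and of Mov10-/- mice, replicates 2, 3 and 4, all at postnatal day 21 (P21). The Mov10-/- mice were global knockouts, bred from Mov10+/- mice whose mutant allele was made with Actb-Cre. The paper reported that MOV10, an RNA helicase, was absent from adult knockout testes by Western blot and immunofluorescence. It did not report on MOV10 in testis macrophages. The mice were on a mixed genetic background (129, C57BL/6 and FVB), and the surviving knockouts were fertile. A further 4 libraries held RNA crosslinked to MOV10 in P21 wild type testes (CLIP-seq).

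Macrophages are resident immune cells that engulf dead cells and debris and present antigens. In the testis they lie in the interstitium beside the Leydig cells, which make testosterone, and on the outer wall of the seminiferous tubules. Survival of most tissue macrophages depends on the receptor CSF1R and its ligands CSF1 and IL34. Their identity depends on the transcription factor PU.1, which is encoded by Spi1 and binds purine-rich DNA with a GGAA core. The complement protein C1q, which tags targets for engulfment, is built from the products of C1qa, C1qb and C1qc. In these whole-testis libraries, fewer macrophages and less RNA per macrophage cannot be told apart.

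The DNA just upstream of 4 of the genes is shown because they mark one lineage. The set holds both C1q chains with a sequence at hand, and, picked after their values were seen, Mrc1, which had the most reads, and Cd163, whose values departed most from the rest. The sequences were copied from RefSeq (GRCm38.p6) and read 5′ to 3′ on the strand of the gene, with exonic bases left out. Capitals mark GAGGAA, a PU.1-type core, or TTCCTC, its reverse complement.
C1qb, chr4:136886201-136886450, minus strand: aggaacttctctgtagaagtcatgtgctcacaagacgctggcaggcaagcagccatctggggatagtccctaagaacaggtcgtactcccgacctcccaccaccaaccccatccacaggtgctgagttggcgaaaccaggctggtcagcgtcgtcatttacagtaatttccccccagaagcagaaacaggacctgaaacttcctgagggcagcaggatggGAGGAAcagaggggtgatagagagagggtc
C1qc, chr4:136893066-136893164, minus strand: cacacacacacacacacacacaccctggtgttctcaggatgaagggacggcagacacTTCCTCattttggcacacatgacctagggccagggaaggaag
Mrc1, chr2:14229164-14229391, plus strand: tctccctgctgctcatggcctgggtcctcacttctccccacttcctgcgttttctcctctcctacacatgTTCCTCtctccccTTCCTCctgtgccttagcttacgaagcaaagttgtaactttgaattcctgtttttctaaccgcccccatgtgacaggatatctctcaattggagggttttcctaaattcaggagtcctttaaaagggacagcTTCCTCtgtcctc
Cd163, chr6:124304401-124304650, plus strand: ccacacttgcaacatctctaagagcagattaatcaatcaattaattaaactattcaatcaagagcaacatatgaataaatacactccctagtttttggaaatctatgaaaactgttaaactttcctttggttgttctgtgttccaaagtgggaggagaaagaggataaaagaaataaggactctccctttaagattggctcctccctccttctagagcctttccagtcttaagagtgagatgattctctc
RefSeq upstream sequences were matched for 6 of the 10 genes, Cx3cr1 and Cd68 being the other two. GAGGAA was found on either strand in the 250 bases upstream of the start in 4 of the 6 (C1qb, C1qc, Mrc1 and Cd68), and in 23.3% of all 32851 such windows. In Mrc1 it was found at 3 positions. TATAAA was found in 0 of the 6 and in 12.4% of all windows. For these counts the 250 bases were searched whole, in the 6 genes as in all windows, with any annotated exon in them; for Cx3cr1 the window lies within an exon. A match is a string of letters and not a measured binding site.

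The libraries held 5083407 to 9230540 gene reads each, and levels are given as CPM, a read count scaled to the library total, in which 1 read was worth 0.108 to 0.197. Mov10 itself, the check of the labels, had 110 ± 11.9 CPM in wild type and 27.4 ± 1.38 CPM in Mov10-/- testes (SD, n = 3 each), without overlap. Mov10-/- replicate 3 was the shallowest library, with 57.2% of its reads not aligned. CPM was scaled with TMM (trimmed mean of M values) factors, and a log2 fold change is positive where Mov10-/- was higher. Genes were compared with the quasi-likelihood test of edgeR, with Benjamini-Hochberg adjustment over the 20240 genes above 1 CPM in at least 3 libraries. A call needed an adjusted p under 0.05 and a fold over 2. All 10 macrophage genes passed the filter and had reads in every library.

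Compared per kilobase of annotated exon (RPKM), C1qb and C1qa led the macrophage genes. In wild type testes, C1qb had 25.8 ± 6.08 RPKM and C1qa 25.2 ± 7.40 RPKM (SD, n = 3). Cd68, a lysosomal glycoprotein, followed at 16.9 ± 4.21 RPKM and Mrc1, the mannose receptor CD206, at 15.6 ± 5.02 RPKM. C1qc had 13.1 ± 3.37 RPKM and Csf1r 9.67 ± 3.88 RPKM. Adgre1, which encodes the surface protein F4/80, had 5.90 ± 2.05 RPKM and the chemokine receptor gene Cx3cr1 5.80 ± 3.89 RPKM. Along this order, each of these 8 genes had a range over the wild type libraries that overlapped that of the next. Lyve1, a hyaluronan receptor also made by lymphatic endothelium, had 1.47 ± 0.21 RPKM. Cd163, the scavenger receptor for haemoglobin, was lowest at 0.687 ± 0.201 RPKM. The wild type ranges of Lyve1 and Cd163 overlapped that of no other member. Within a library the C1q chains kept a close ratio. C1qa had 0.858 to 1.16 times the reads per exon base of C1qb over the 6 libraries, and C1qc 0.465 to 0.622 times. Of the exon bases of Csf1r, 15.1% overlap exons of Hmgxb3 on the other strand. For Cx3cr1 this was 1.73%, with Gm33858, and the strand setting of the counting is not given in the sources used here.

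Csf1r, the growth factor receptor on which macrophages depend, had 80.2, 42.4 and 44.4 CPM in wild type replicates 1, 2 and 3. In Mov10-/- replicates 2, 3 and 4 it had 101, 66.9 and 68.7 CPM. The groups overlapped through wild type replicate 1, which lay above Mov10-/- replicates 3 and 4. The log2 fold change was 0.51 (standard error 0.28, 95% interval -0.13 to 1.15), with an adjusted p of 0.386 in edgeR. The genes of its ligands were measured in the same libraries. Csf1 had 45.0 ± 7.05 CPM in wild type and 50.6 ± 13.2 CPM in Mov10-/- testes, and Il34 had 2.76 ± 0.91 and 3.06 ± 0.55 CPM (SD, n = 3 each). Both overlapped between genotypes, with log2 fold changes of 0.17 and 0.16. Spi1, for PU.1, had 5.47 ± 2.05 CPM in wild type and 6.59 ± 2.60 CPM in Mov10-/- testes and also overlapped.

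Cx3cr1, the receptor for the chemokine CX3CL1, had the widest wild type spread of the members relative to its mean. It had 45.6, 17.0 and 15.4 CPM in wild type replicates 1, 2 and 3, and 51.5, 28.4 and 37.1 CPM in Mov10-/- replicates 2, 3 and 4. Wild type replicate 1 therefore had 2.81 times the mean of the other 2 wild type libraries, and lay above 2 of the 3 Mov10-/- libraries. The log2 fold change was 0.59 (standard error 0.43, 95% interval -0.41 to 1.59; adjusted p = 0.519 by the edgeR quasi-likelihood test). Cx3cl1, the ligand gene, had 36.6 ± 2.51 CPM in wild type and 46.1 ± 8.57 CPM in Mov10-/- testes (SD, n = 3 each; log2 fold change 0.34).

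Adgre1 had 26.3, 16.6 and 14.3 CPM in wild type replicates 1, 2 and 3 and 35.4, 15.3 and 23.5 CPM in Mov10-/- replicates 2, 3 and 4. One library of each genotype was high, and Mov10-/- replicate 3 fell between the 2 low wild type libraries. Cd68 had 26.8, 18.5 and 18.2 CPM in wild type and 27.4, 23.1 and 25.8 CPM in Mov10-/- testes. Here the 3 Mov10-/- libraries lay close together, above wild type replicates 2 and 3, and wild type replicate 1 fell among them. The log2 fold changes were 0.38 for Adgre1 (standard error 0.35) and 0.27 for Cd68 (standard error 0.22).

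Mrc1, the endocytic receptor CD206, had 134, 79.9 and 83.7 CPM in wild type replicates 1, 2 and 3. In Mov10-/- replicates 2, 3 and 4 it had 141, 97.8 and 106 CPM. Its order of libraries was that of Csf1r at both ends, with Mov10-/- replicate 2 highest and wild type replicate 2 lowest, and its log2 fold change was 0.21 (standard error 0.22, 95% interval -0.30 to 0.73). Lyve1 had 3.99, 3.95 and 4.92 CPM in wild type and 5.68, 3.07 and 4.55 CPM in Mov10-/- testes, a log2 fold change of 0.06 (95% interval -0.72 to 0.84). The wild type libraries lay inside the range of the Mov10-/- libraries. Cd163 had 4.45, 2.59 and 4.17 CPM in wild type and 5.19, 1.43 and 2.46 CPM in Mov10-/- testes. It was the member with a negative log2 fold change, -0.28 (95% interval -1.42 to 0.86). The level in Mov10-/- replicate 3 rested on 7 reads, with an exact Poisson 95% interval of 0.576 to 2.95 CPM for counting error only, and without that library the log2 fold change was 0.03.

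The C1q genes lie side by side on the minus strand of chromosome 4 of mm10, C1qb from 136880129 to 136886187, C1qc from 136889804 to 136893065 and C1qa from 136895917 to 136898803. C1qa had 34.3, 21.1 and 23.0 CPM in wild type replicates 1, 2 and 3 and 38.4, 29.3 and 36.7 CPM in Mov10-/- replicates 2, 3 and 4. C1qb had 35.1, 25.8 and 23.3 CPM in wild type and 35.8, 29.9 and 33.2 CPM in Mov10-/- testes. C1qc had 32.1, 21.3 and 22.2 CPM in wild type and 39.5, 31.1 and 35.4 CPM in Mov10-/- testes. In all 3 chains the Mov10-/- libraries lay above wild type replicates 2 and 3, and wild type replicate 1 lay above Mov10-/- replicate 3. C1qc had the smallest p of the 10 members, with a log2 fold change of 0.49 (standard error 0.21, 95% interval -0.00 to 0.98; adjusted p = 0.287 by the edgeR quasi-likelihood test). The log2 fold changes of C1qa and C1qb were 0.41 and 0.23, with standard errors of 0.23 and 0.20.

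**Figure D1:**
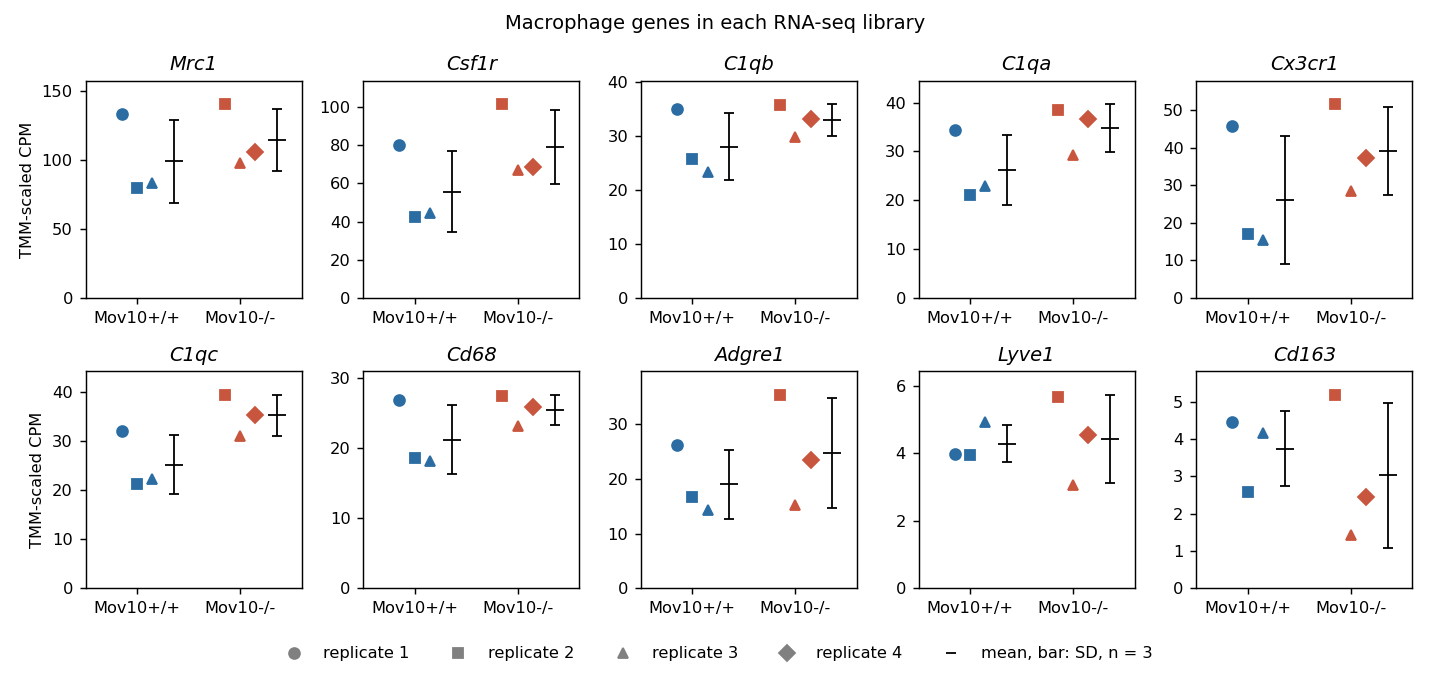
Each panel gives 1 macrophage gene, with TMM-scaled CPM on a linear axis from 0 for each wild type (blue) and Mov10-/- (red) library; symbols give the replicate number, and bars the mean and SD (n = 3). Wild type replicate 1 lies above at least 1 Mov10-/- library in all 10 panels, and Mov10-/- replicate 2 is the top library in each.

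Between libraries the members varied together. Mov10-/- replicate 2 was the highest of the 6 libraries for all 10 members, and Mov10-/- replicate 3 the lowest of its group for all 10. Wild type replicate 1 was the highest of its group for 9 members, above Mov10-/- replicate 3 for all 10 and above Mov10-/- replicate 4 for 7. Summed over the members, the level was 422, 249 and 254 CPM in wild type replicates 1, 2 and 3 and 481, 326 and 373 CPM in Mov10-/- replicates 2, 3 and 4. That is 308 ± 98.8 CPM in wild type and 394 ± 79.2 CPM in Mov10-/- testes (SD, n = 3 each). The highest library had 1.51 times the lowest for Cd68 and 3.62 times for Cd163, with the other 8 between.

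Over the 6 libraries, the 45 pairs of members had a median Pearson r of 0.875 on log2(CPM + 0.5), and 21 pairs were above 0.9. Csf1r, Cx3cr1, Cd68, Mrc1, Adgre1 and the C1q chains had r of 0.879 to 0.971 with the mean of the other 9 members. Lyve1 and Cd163 had 0.404 and 0.388. These are descriptions of 6 libraries that also differ in depth and genotype. Of 13616 other protein-coding genes above 5 CPM on average, those most like the mean of the members were Mmp19, Xdh, Map4k3, Rap1b and Stag2, with r of 0.993 to 0.994, and 4.02% of these genes had r above 0.9.

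**Figure D2:**
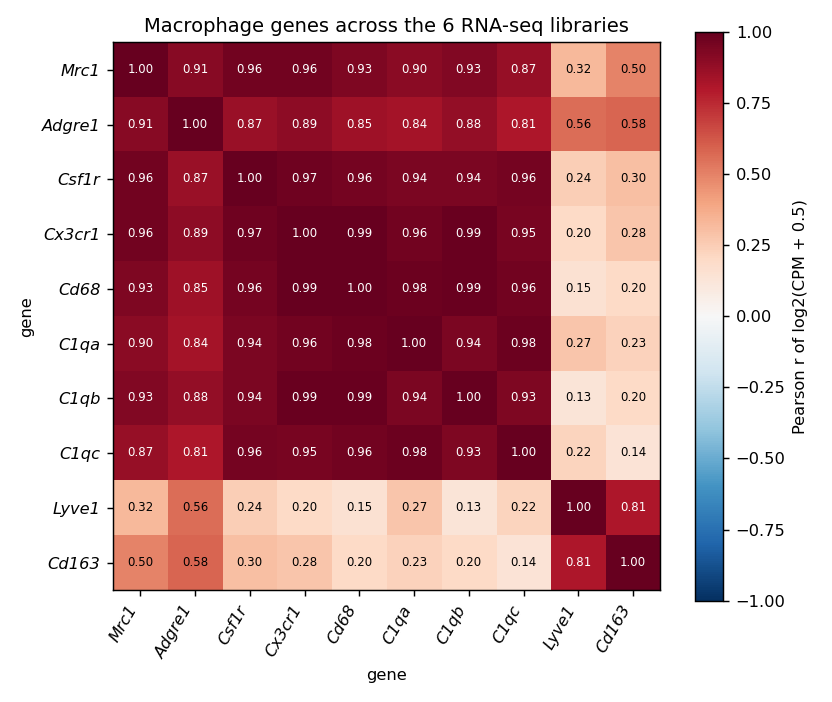
Pearson r between each pair of macrophage genes on log2(CPM + 0.5) over the 6 RNA-seq libraries, ordered by likeness to the other members. Lyve1 and Cd163 stand apart, with pairs down to 0.131, from a block of 8 genes.

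No member was called in Mov10-/- testes: 0 of 10 passed, and 0.00494% of all genes tested did, which is 1 gene, Mov10. In edgeR's quasi-likelihood test, 0 members had an unadjusted p under 0.05 and were higher and 0 were lower, where 5.57% of all genes were higher and 11.9% lower. The other tools also called 0 members, where DESeq2 called 5.24% of all genes, edgeR's exact test 5.44%, its likelihood ratio test 5.86% and limma voom 0.00988%. At an unadjusted p under 0.05, C1qc was higher by DESeq2 (5.61% of all genes) and by limma voom (5.9%), and 0 members were higher by the exact test (5.18%) or the likelihood ratio test (5.32%). The libraries of the genotypes were separate for 0 of 10 members, against 26% of all genes. The log2 fold change was above 0 for 9 of the 10, against 53.8% of all genes, and below 0 for 1, against 46.2%, and the median was 0.32, against 0.03. Marker lists of other testis cells also had medians above 0. These were 0.34 for Sertoli (7 of 7 tested above 0), 0.30 for blood endothelial (8 of 8), 0.33 for peritubular myoid (5 of 6) and 0.17 for Leydig cells (4 of 5). For spermatid markers the median was -2.01, with 1 of 14 above 0.

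The counts of separate groups and of unadjusted p under 0.05 changed with the library left out, and the count called stayed at 0. Without wild type replicate 1, 7 of 10 members had every Mov10-/- library above the other 2 wild type libraries, against 19.5% of all genes. The median log2 fold change was 0.55, with 8 members above 0. At an unadjusted p under 0.05, 5 members were then higher (Csf1r, Mrc1, Cx3cr1, C1qa and C1qc), against 5.55% of all genes, and 0 were called, against 0.00988%. Members with every Mov10-/- library below were 0, against 20% of all genes. The log2 fold change of Cx3cr1 was then 1.25 and that of Csf1r 0.84, with edgeR adjusted p of 0.133 and 0.136. Without Mov10-/- replicate 3 the median was 0.43 and 2 members had separate groups with Mov10-/- higher. C1qc alone then had an unadjusted p under 0.05 in the edgeR quasi-likelihood test. The shares of all genes were not counted for that setting. Without Mov10-/- replicate 4, wild type replicate 2 or wild type replicate 3, both counts were 0, and the shares of all genes were not counted there either. Without Mov10-/- replicate 2 the median was 0.19, and 0 members had separate groups with Mov10-/- higher and 1, Cd163, with Mov10-/- lower, against 16.5% and 16.7% of all genes. When libraries were scaled to marker genes of Leydig, Sertoli, peritubular and blood endothelial cells in place of TMM, the median over all genes moved from 0.03 to -0.24 and that of the members from 0.32 to 0.06. Under that scaling 0 members were called, against 0.0543% of all genes, and Mrc1 (-0.05), C1qb (-0.03) and Lyve1 (-0.23) turned negative. A change of scaling moves all genes nearly alike. The median of the members less that of all genes was therefore bound to stay near its TMM value, and was 0.29 with both. The 0.06 is the median of the members relative to these somatic markers.

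**Figure D3:**
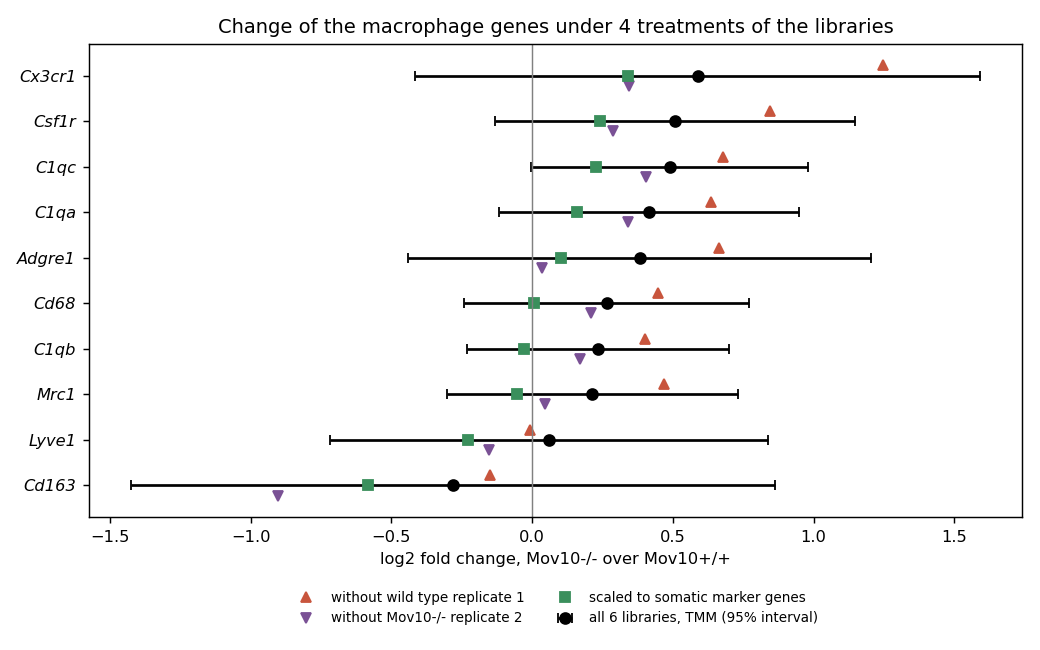
log2 fold change of each macrophage gene, with all 6 libraries and TMM (black, 95% interval), without wild type replicate 1 (red), without Mov10-/- replicate 2 (purple) and with scaling to somatic marker genes (green). All 10 intervals include 0, and without wild type replicate 1 all values but that of Lyve1 (-0.01) are higher.

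Other lists of macrophage genes were read in the same libraries. Of 20 further genes of mononuclear phagocytes, 19 were tested and 0 were called; 2 were higher and 1 lower at an unadjusted p under 0.05, against 5.57% and 11.9% of all genes, and the median log2 fold change was 0.28. Mpeg1, which encodes a pore-forming protein of phagocytes, had 131, 58.6 and 83.4 CPM in wild type and 158, 123 and 144 CPM in Mov10-/- testes. Csf2ra, a GM-CSF receptor subunit, had 18.0 to 32.9 CPM in wild type and 38.7, 67.1 and 37.8 CPM in Mov10-/- testes. Its highest library was Mov10-/- replicate 3, where all 10 members had their lowest Mov10-/- level. Aif1, a common macrophage marker, had 30.1, 79.6 and 18.4 CPM in wild type and 8.52, 15.5 and 9.22 CPM in Mov10-/- testes. Over the 6 libraries its r was 0.987 with the mean of the spermatid markers and -0.591 with that of the members. Its log2 fold change was -1.96 (adjusted p = 0.156 by the edgeR quasi-likelihood test), and it was called by DESeq2, the exact test and the likelihood ratio test.

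Of 10 genes typical of interstitial tissue macrophages, all 10 were tested and 0 were called. All 10 had a log2 fold change above 0, against 53.8% of all genes. The median was 0.38, and 2 genes were higher at an unadjusted p under 0.05 (Gas6 and Stab1), against 5.57% of all genes. Gas6 was highest in Mov10-/- replicate 3 (153 CPM), where all 10 members had their lowest Mov10-/- level. Its r with the mean of the members was 0.462. Stab1, a scavenger receptor, had 98.4, 51.0 and 59.3 CPM in wild type and 128, 108 and 87.0 CPM in Mov10-/- testes. Timd4, which binds phosphatidylserine on dying cells, had 5.04, 2.45 and 2.35 CPM in wild type and 5.80, 5.32 and 5.16 CPM in Mov10-/- testes. Timd4 and Gas6 were the 2 genes of this list with separate groups, against 11.9% of all genes that were higher in this way. Without wild type replicate 1 there were 8, against 19.5%, and the median was 0.74. The median was 0.17 without Mov10-/- replicate 2, 0.25 without wild type replicate 3 and 0.10 with scaling to somatic markers. Genes of this list at an unadjusted p under 0.05 were 0 without wild type replicate 2, without wild type replicate 3 and with that scaling. For these 3 settings the shares of all genes at that p were not counted.

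The antigen-presenting list holds genes of presentation through MHC class II and also Itgax, which is not of that pathway. Its mean over the libraries had an r of 0.131 with that of the members (n = 6), and of 0.676 once each genotype's mean was taken off. Of 8 tested, 7 had a log2 fold change below 0, against 46.2% of all genes, the median was -0.55 and 0 were called. H2-DMa, H2-DMb1, H2-Ab1, H2-Aa and H2-Eb1 lie together on chromosome 17, between 34119541 and 34316674. The mice were on a mixed genetic background, and whether the libraries differed in strain origin at this locus was not tested. Itgax was above 0 (0.56), with 2 reads each in wild type replicates 2 and 3. At an unadjusted p under 0.05, 2 were lower, against 11.9% of all genes, and 0 were higher, against 5.57%. H2-Eb1, a class II beta chain, had 7.15, 12.8 and 9.52 CPM in wild type and 5.56, 1.02 and 2.46 CPM in Mov10-/- testes. H2-DMb1, which helps load peptides, had 10.2, 13.1 and 12.6 CPM in wild type and 6.67, 2.25 and 7.62 CPM in Mov10-/- testes. Neither overlapped between genotypes, with Mov10-/- lower, which held for 14.1% of all genes. The log2 fold changes were -1.66 and -1.09, with edgeR adjusted p of 0.194 and 0.249. Cd74, the class II invariant chain, overlapped, with 19.7, 27.4 and 24.8 CPM in wild type and 28.9, 8.18 and 12.9 CPM in Mov10-/- testes. Without Mov10-/- replicate 2, 6 of the 8 had separate groups with Mov10-/- lower, against 16.7% of all genes, and the median was -1.01. Without Mov10-/- replicate 3 the median was -0.36. Without Mov10-/- replicate 4, or without wild type replicate 2 or 3, 1 gene of this list was lower at an unadjusted p under 0.05, in place of 2. The shares of all genes at that p were not counted for these settings.

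**Figure D4:**
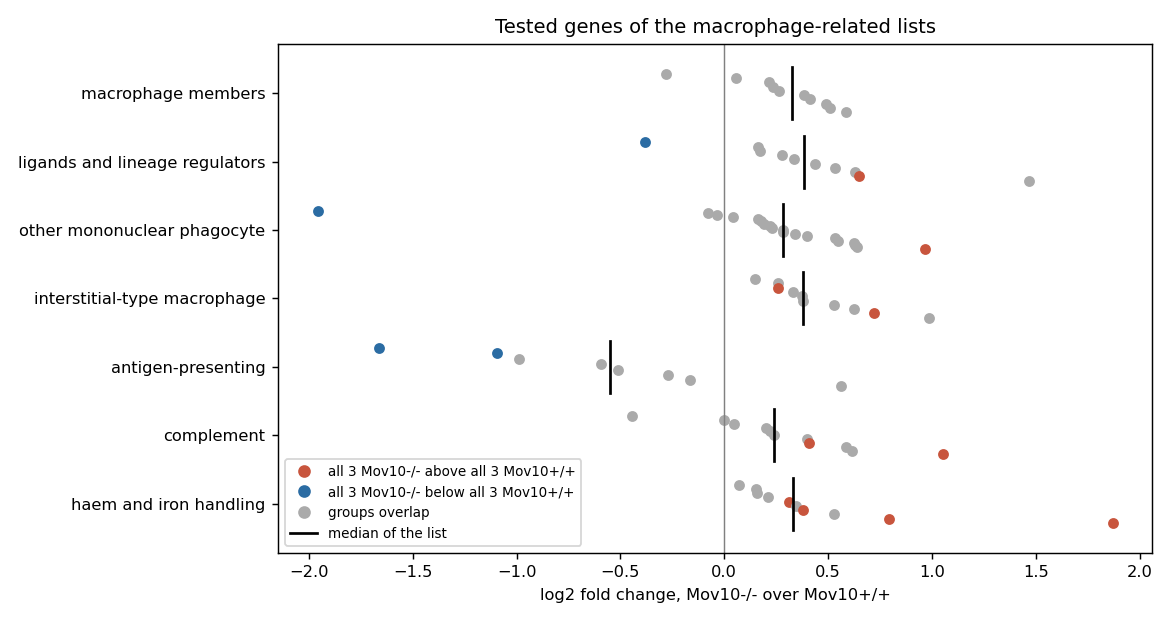
log2 fold change of each tested gene in the macrophage-related lists, with list medians as black bars; red and blue mark genes whose 3 Mov10-/- libraries all lay above or below the 3 wild type libraries. All 10 members are grey, and the antigen-presenting list is the one with a median below 0 (-0.55).

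Among 10 ligands and lineage regulators, 2 were higher at an unadjusted p under 0.05, 0 were lower and 0 were called; over all genes the shares were 5.57% higher and 11.9% lower, for this and for the complement and haem lists. Cebpb, a transcription factor of myeloid cells, was among the higher ones, with 1.17 ± 0.55 CPM in wild type and 3.36 ± 1.99 CPM in Mov10-/- testes (SD, n = 3 each). Its groups overlapped, and these levels rested on 5 to 27 reads per library. Of 12 complement genes, 11 were tested, 1 was higher at an unadjusted p under 0.05 and 0 were lower. That gene, C3, the central complement component, had 49.1, 24.0 and 26.8 CPM in wild type and 90.0, 63.8 and 53.7 CPM in Mov10-/- testes. Its log2 fold change was 1.05 (adjusted p = 0.165 by the edgeR quasi-likelihood test), and it was called by DESeq2, the exact test and the likelihood ratio test. Of 10 genes of haem and iron handling, 2 were higher at an unadjusted p under 0.05, Hp and Blvrb, and 0 were called. Hmox1, which breaks down haem, had 39.1 ± 7.90 CPM in wild type and 43.3 ± 5.71 CPM in Mov10-/- testes (SD, n = 3 each). Of 12 monocyte and chemokine genes, 2 passed the filter and 6 had at most 3 reads in every library, so that changes in them were not detectable at this depth.

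Several lists of other cell types also differed between libraries, and their part in the members' values was not tested. The 6 Leydig markers summed to 485, 339 and 261 CPM in wild type and 511, 370 and 341 CPM in Mov10-/- testes, with the same 2 libraries at the top as for the members. Their mean had an r of 0.879 with that of the members. The 8 blood endothelial markers summed to 145 to 167 CPM in wild type and 182 to 205 CPM in Mov10-/- testes, without overlap. The 8 Sertoli markers summed to 462 to 586 CPM and 608 to 701 CPM, also without overlap. The 10 adipocyte markers summed to 61.2 to 63.1 CPM in wild type and 125 to 164 CPM in Mov10-/- testes, and 6 of the 10 had separate groups, against 11.9% of all genes. The 15 spermatid markers summed to 728, 1423 and 566 CPM in wild type and 347, 669 and 428 CPM in Mov10-/- testes, with an r of -0.676 between their mean and that of the members. Of 16 markers of other leukocytes, 6 passed the filter and 4 had at most 3 reads in every library. Cd3d, of T cells, had separate groups with Mov10-/- lower, and its r with the spermatid mean was 0.994. These 16 summed to 29.7 to 37.6 CPM in wild type and 26.8 to 39.0 CPM in Mov10-/- testes. Cpa3, of mast cells, had 75 reads in Mov10-/- replicate 2, the library highest for all 10 members, and 2 to 8 reads in each other library. Of 6 epididymis markers, Adam7 had 163 reads in that library, 55 in wild type replicate 3 and 0 to 6 in the others, whereas Rnase10 had 1 read there and up to 166 elsewhere. The r of Rnase10 with the spermatid mean was 0.906. Of 6 lymphatic markers, chosen because Lyve1 is shared with lymphatic vessels, 4 were tested and Pdpn had 0 reads in every library; Ccl21a matched more than 1 gene and was left out. Prox1, a regulator of lymphatic fate, had a log2 fold change of -1.70, without overlap, and its r with the spermatid mean was 0.820. Mmrn1 went the other way, at 1.06, with overlap. The 4 tested had a median of -0.01, with 2 above 0. The 5 lymphatic markers with 1 match summed to 92.1 to 96.0 CPM in wild type and 89.0 to 98.8 CPM in Mov10-/- testes. Most of this was Reln, with 72.5 ± 9.16 and 80.4 ± 4.11 CPM (SD, n = 3 each).

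**Figure D5:**
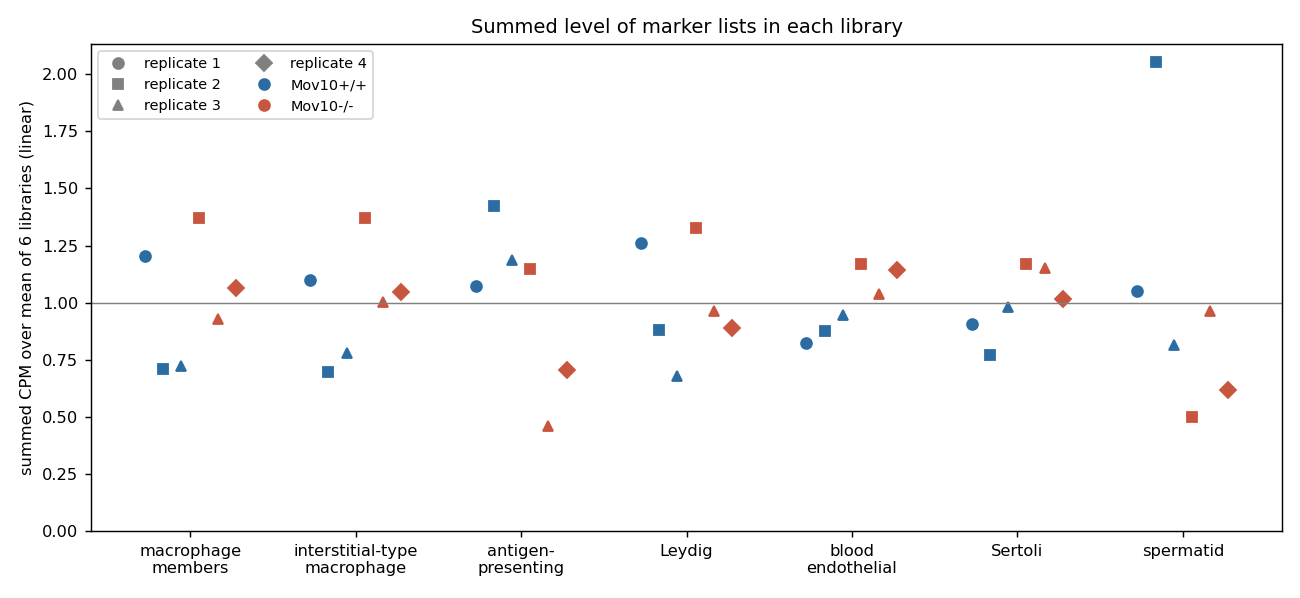
Summed CPM of 7 marker lists in each library, divided by its mean over the 6 libraries (linear axis from 0), for wild type (blue) and Mov10-/- (red); symbols give the replicate number. Wild type replicate 1 and Mov10-/- replicate 2 are the top 2 libraries for the macrophage members and for the Leydig markers.

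The deposited counts of MOV10 CLIP-seq gave no measure of these genes. In them 99.5 to 99.6% of the reads per library were not aligned. The paper reported bound transcripts from its own processing of the CLIP-seq. In 15710 reads on genes over the 4 libraries, the members had 1 read, on Mrc1 in replicate 5. At their share of wild type RNA-seq reads, the members would hold 4.86 reads of this total. A count of 0 allowed up to 608 to 881 CPM per library, above the level of every member in RNA-seq.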

How the data were processed

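RNA-seq libraries were made from P21 testes with a stranded mRNA kit. The authors trimmed adapters, removed low-quality reads, aligned to mm10 with STAR and counted reads per Ensembl gene with htseq-count. They deposited raw counts per gene, which were used as they stand; tool versions and strand setting are not given in the sources used here. The closing lines of reads outside genes were left out of library sizes.

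Symbols, coordinates and exon lengths came from GENCODE M21 (GRCm38, the assembly of mm10), which matched 55240 of the 55421 genes. Genes above 1 CPM in at least 3 of 6 libraries were tested with edgeR 4.0.16 (TMM, quasi-likelihood, Benjamini-Hochberg) in R 4.3.3; DESeq2 1.42.0, limma 3.58.1 (voom) and other edgeR tests, normalizations and filters, the replicate number as a block, and leaving out single libraries were alternatives. Standard errors and 95% intervals were derived from the F statistic and are approximate. Scripts were tested on simulated data. Figures were made with matplotlib 3.10.9. p-values measure the spread between 3 pairs of testes per genotype.

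The members and gene lists were chosen with earlier results of these data known. Named by rule were the members, Mov10, Csf1, Il34, Cx3cl1 and Spi1, the 5 genes most like the members, and in each list the extremes and the genes with separate groups at an unadjusted p under 0.05. Most of the latter are given here as counts; Cd74, Mpeg1, Stab1, Timd4 and Hmox1 were added after their values were seen. A gene of the ligand and regulator list is not reported here.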

Additional observations from a re-analysis of the deposited data

How the results depend on the processing

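The number of macrophage genes called was 0 under every alternative run, and their median log2 fold change stayed above 0, between 0.19 and 0.55 with each library left out. This median was lowest with somatic scaling, at 0.06, with 6 of the 10 members above 0. The number of all genes called was 1 in the analysis reported, 6 with library sizes alone, 11 with somatic scaling, 10 without a filter, 2 with limma voom, 1039 with DESeq2, 1101 with the exact test, 1187 with the likelihood ratio test and 181 with a replicate block, and 0 to 2 with each library left out. Replicate numbers 2 and 3 are shared by the genotypes, and the sources do not say what a shared number means. Over all genes, deviations from the genotype means had r of -0.47 and -0.35 between same-numbered libraries. Between libraries with different numbers r was -0.26 to 0.46. These values cannot decide whether same-numbered libraries share a batch. In the replicate block, wild type replicate 1 and Mov10-/- replicate 4 had no partner. Genotype was then compared through replicates 2 and 3 only. The median of the members with this block was 0.56, near the 0.55 found without wild type replicate 1. Csf1r was then at 0.93 and Cx3cr1 at 1.24, and Lyve1 and Cd163 were below 0. For Csf1r and Cx3cr1 the edgeR quasi-likelihood test gave unadjusted p of 0.0075 and 0.015 and adjusted p of 0.186 and 0.269.

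Directions turned as follows; the causes were not tested. With somatic scaling, which lowered the median of all genes to -0.24, the log2 fold change was -0.0528 for Mrc1, -0.23 for Lyve1, -0.0276 for C1qb, -0.12 for Cbr2, -0.0101 for Gas6, -0.21 for Cxcl16, -0.19 for Blvra, -0.21 for Tek, -0.10 for Gata4, -0.25 for Odf2, -0.0391 for Dmc1, -0.25 for Hormad1, -0.11 for Csf1, -0.11 for Il34, -0.17 for Map4k3, -0.12 for Rap1b and -0.0318 for Stag2. It was -0.00836 for Odf2 with limma voom, and with the replicate block -0.0629 for Lyve1, 0.23 for Cyp11a1 and -0.10 for Il34. Leaving out single libraries, it ranged from -0.15 to 0.25 for Lyve1, -0.90 to 0.0276 for Cd163, -0.0565 to 0.18 for Cxcl16, -0.0767 to 0.20 for Tek, -0.0419 to 0.33 for Csf1, -0.0773 to 0.58 for Spi1, -0.84 to 0.19 for Hba-a2, -0.23 to 0.13 for Cyp11a1, -0.18 to 0.15 for Odf2, -0.0138 to 0.0422 for Hormad1, -0.00012 to 0.46 for Il34 and -0.88 to 0.0907 for Actg2.

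The least abundant members, Cd163 and Lyve1, had 7 and 15 reads in their lowest library.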
